A study of Mus musculus with 18 samples.

Results

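The mitochondrial genome transcripts of C2C12 myotubes, muscle fibres formed by fusion of a mouse myoblast line, were followed in 18 poly-A RNA libraries. Members were the genes whose mouse symbol begins with mt-, 37 of the 48795 gene IDs in the expected-count table, comprising 13 protein genes, 2 ribosomal RNAs (rRNAs) and 22 transfer RNAs (tRNAs). Of these, 15 had counts and entered the tests, among 15436 tested genes, and they were all 13 protein genes and both rRNAs. There were 6 groups of 3 libraries. Myotubes in all groups had been differentiated for 5 days. Those with 200 µM dexamethasone (DEX, a synthetic glucocorticoid) for 24 h had first received vehicle (DEX), 10 µM ginsenoside Rc (DEX with 10 µM gRc) or 20 µM ginsenoside Rc (DEX with 20 µM gRc) for 12 h. Those without DEX received 0.1% DMSO (control), 10 µM gRc or 20 µM gRc for 36 h. Ginsenoside Rc is a saponin of ginseng. C2C12 is 1 cell line. The labels do not state whether replicate libraries were grown as separate cultures, and p-values therefore reflect library-to-library spread that could be technical.

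The mitochondrial genome is a small circle of DNA kept in many copies inside the organelle. It is transcribed from both strands into long precursors, which are cut largely at the tRNAs that lie between the other genes. The messengers encode core subunits of respiratory complexes I, III and IV and of ATP synthase, while every other subunit, and all proteins that copy, transcribe and translate this genome, come from the nucleus. Most mitochondrial messengers carry short poly-A tails, and mature tRNAs carry none.

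On the mitochondrial chromosome of GRCm38 the detected genes were read mostly from 1 strand. Both rRNAs and the protein genes lay on the plus strand, except mt-Nd6, a complex I subunit, on the minus strand (chrM:13552-14070). Among the tRNAs, 8 of 22 were on the minus strand. Several neighbours share bases, which limits how their reads can be told apart. The messenger of mt-Atp8 and mt-Atp6, both ATP synthase subunits, has the largest overlap, 43 bases, which is 21.1% of mt-Atp8. The end of mt-Atp8 (chrM:7907-7969, plus strand) and the start of mt-Atp6 (chrM:7927-7989, plus strand) are shown 5′ to 3′, with the shared bases in capitals.

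mt-Atp8: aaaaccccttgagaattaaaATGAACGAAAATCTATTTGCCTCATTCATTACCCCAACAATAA
mt-Atp6: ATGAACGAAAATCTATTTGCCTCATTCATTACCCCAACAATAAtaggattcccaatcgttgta

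The complex I genes mt-Nd4l and mt-Nd4 share 7 bases on 1 strand. The complex I gene mt-Nd5 and mt-Nd6 share 14 bases on opposite strands, chrM:13532-13565 on the plus strand and chrM:13552-13585 on the minus strand, shown with the shared bases in capitals.

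mt-Nd5: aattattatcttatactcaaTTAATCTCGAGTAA
mt-Nd6: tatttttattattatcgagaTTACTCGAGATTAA

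The second kind of shared sequence lies outside the organelle. A stretch of chromosome 1 (24611535 to 24616197 of GRCm38, minus strand) holds 7 annotated unprocessed pseudogenes that matched mitochondrial protein genes at 99% identity or more over at least 90% of the pseudogene's length. They were Gm29216 (mt-Co1), Gm28661 (mt-Co2), Gm10925 (mt-Atp6), Gm28437 (mt-Co3), Gm28438 (mt-Nd3), Gm10222 (mt-Nd4l) and Gm28439 (mt-Nd4). The genes mt-Co1, mt-Co2 and mt-Co3 encode the catalytic core of complex IV, and the mt-Nd genes encode complex I subunits. Gm28661, Gm10925, Gm28437, Gm10222 and Gm28439 were identical to their gene over every aligned base. The 3′ ends of mt-Co2 (chrM:7664-7696, plus strand) and Gm28661 (chr1:24614885-24614914, minus strand) are shown because the mt-Co2 entry held the smallest share of its pair's counts. Capitals mark the stop codon, which lies past the annotated end of the copy.

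mt-Co2: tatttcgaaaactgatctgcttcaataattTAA
Gm28661: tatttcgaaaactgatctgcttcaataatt

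The other pairs each held 1 substitution. The start of mt-Nd3 (chrM:9459-9491, plus strand) and of Gm28438 (chr1:24613087-24613119, minus strand) differed by T3C, counted from the first base of mt-Nd3. The start of Gm29216 (chr1:24616155-24616197, minus strand) lies within mt-Co1 (chrM:6363-6423, plus strand) and differed from it by A1066T, counted from the first base of mt-Co1. The first 9 bases of Gm29216 did not align. Capitals mark the substituted base.

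mt-Nd3: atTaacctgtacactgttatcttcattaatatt
Gm28438: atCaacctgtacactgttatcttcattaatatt
mt-Co1: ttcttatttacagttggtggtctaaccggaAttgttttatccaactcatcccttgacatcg
Gm29216: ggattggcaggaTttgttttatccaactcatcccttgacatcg

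Expected counts are RSEM's estimates, which divide a read that matches several genes among them, so each such pair shares reads that sequence alone cannot place. Across the 18 libraries the copies were given 37.7% to 45.0% of all counts on mitochondrial protein genes and copies together. The mt-Co2 entry held 0.105% to 1.41% of its pair's counts, mt-Co3 1.27% to 7.97%, mt-Atp6 2.25% to 6.38% and mt-Nd4l 13.6% to 24.1%. For mt-Nd3 the share was 38.7% to 68.9% in 17 libraries and 15.7% in replicate 2 of 20 µM gRc. For mt-Co1, whose copy aligned over 483 of its 1545 bases, it was 97.2% to 100%, and Gm28439 took almost nothing from mt-Nd4. The 13 other nuclear sequences matched less closely, at 87.0% to 97.6% identity, and those among them with an entry in the table held at most 16.3 counts in any library.

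**Figure D1:**
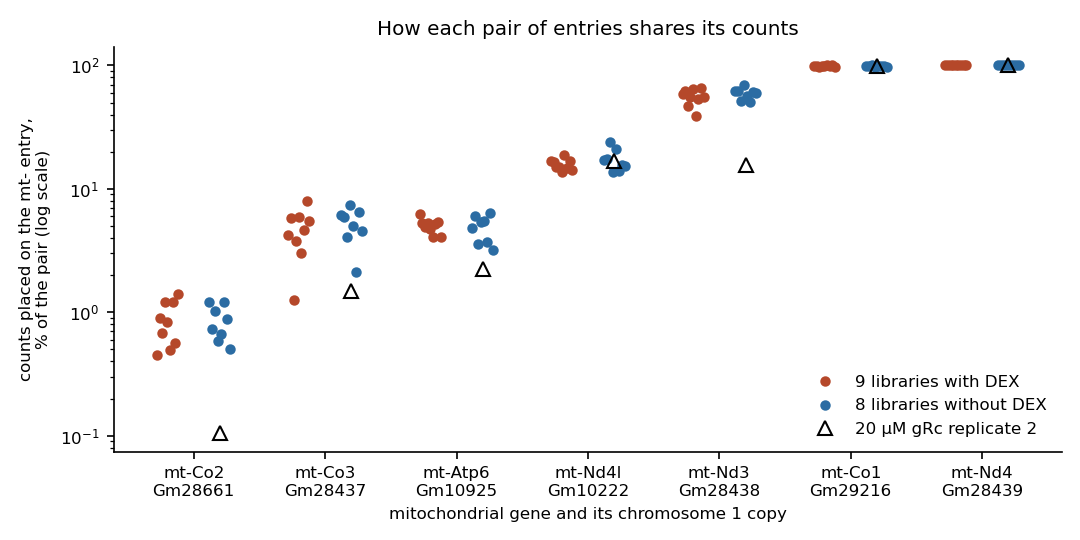
The counts placed on each mitochondrial gene, as a percent of the counts of the gene and its chromosome 1 copy together, on a log axis, with 1 point per library. Points for mt-Co2, mt-Co3 and mt-Atp6 lie under 10%, and replicate 2 of 20 µM gRc (triangle) lies below every other library for mt-Co2 (0.105%), mt-Atp6 (2.25%) and mt-Nd3 (15.7%).

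Whether reads on the copies came from the organelle or from chromosome 1 was not tested. Counts of calls below are therefore given both for the mt- entries as deposited and with the copy's counts added to its gene, and other values say which was used. The spread between replicates with the copy added was lower for some pairs. The coefficient of variation within a group had a median over groups of 40.7% for mt-Co2 as deposited and 6.55% with its copy, 38.7% and 7.71% for mt-Co3, 15.9% and 6.50% for mt-Nd3, and 19.4% and 9.91% for mt-Atp6. It was 15.2% and 14.1% for mt-Nd4l and 8.26% both ways for mt-Nd4. Genes without a paired copy had medians of 3.80% (mt-Rnr1) to 9.79% (mt-Nd6), except mt-Atp8, the shortest protein gene at 204 bases, at 18.7%.

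No tRNA had a count in any of the 18 libraries. A total of 3 counts, the limit that a count of 0 allows, correspond to 0.0661 to 0.0927 CPM (counts scaled to a total of 1e6), and such limits cover counting error only. The 22 tRNAs are 59 to 75 bases long, shorter than the 100-base reads. Of 2346 other genes whose longest transcript is under 100 bases, 4 had any count, and the highest was 0.94. The shortest and the longest of the 22, mt-Ts2, a serine tRNA (chrM:11613-11671), and mt-Tl1, a leucine tRNA (chrM:2676-2750), both on the plus strand, are shown for scale.

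mt-Ts2: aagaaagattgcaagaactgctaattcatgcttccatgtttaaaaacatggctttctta
mt-Tl1: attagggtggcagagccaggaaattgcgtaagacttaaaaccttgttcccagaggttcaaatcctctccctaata

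Between 32.4M and 45.4M expected counts were assigned per library, M standing for 1e6. The first principal component of log2 CPM held 70.9% of the variance and separated libraries with DEX from those without, and the second, with 5.37%, set replicate 2 of 20 µM gRc apart. In that library ribosomal protein genes took 1.96% of counts, against 2.24% to 2.91% in the other 17. Its total was within the range of the others. Muscle markers were high in all libraries, from 5757 to 7310 CPM for the actin gene Acta1 and 528 to 814 CPM for the differentiation factor Myog. Of the defining markers of endothelial, blood, epithelial and fat cells, Pecam1, Ptprc, Epcam and Adipoq were at most 0.133 CPM and Cdh5 at most 0.384 CPM in any library.

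Mitochondrial genes took a larger share of the counts in myotubes with DEX than in those without, apart from that 1 library. As deposited, the mt- genes held 1.76% ± 0.07 of counts with DEX, 1.86% ± 0.02 with DEX and 10 µM gRc, and 1.73% ± 0.18 with DEX and 20 µM gRc (SD, n = 3 each). Without DEX they held 1.34% ± 0.07 in control, 1.38% ± 0.03 with 10 µM gRc and 1.88% ± 0.81 with 20 µM gRc (SD, n = 3 each). The 3 libraries of the last group stood at 1.57%, 2.79% and 1.27%, so its mean rests on replicate 2. The 9 libraries with DEX ranged from 1.54% to 1.91%, and the 8 others without DEX from 1.26% to 1.57%, and replicate 1 of 20 µM gRc at 1.57% was above the lowest library with DEX.

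With the copies added the 9 libraries with DEX held 2.66% to 3.20%, the 8 without DEX held 2.02% to 2.49%, and replicate 2 of 20 µM gRc held 4.34%. Those 9 and 8 libraries did not overlap. A share is relative to all RNA captured, and in bulk myotubes fewer cells of a type and less RNA per cell cannot be told apart. Markers of cell state also differed for DEX against control (edgeR, adjusted p below 0.05). Of 9 myotube markers 6 were higher and 1 lower, with a median log2 change of 0.44. The myosin Myh8 averaged 1413 CPM with DEX and 520 CPM in control, and the embryonic myosin Myh3, the one that was lower, averaged 2496 CPM with DEX and 4665 CPM in control. Of 6 markers of dividing or undifferentiated cells 2 were higher and 4 lower, with a median log2 change of -1.22. The cell-cycle gene Mki67 averaged 4.89 CPM with DEX and 52.0 CPM in control, and the myoblast factor Myf5 51.9 CPM with DEX and 23.6 CPM in control. The part of such shifts in the mitochondrial share was not tested.

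**Figure D2:**
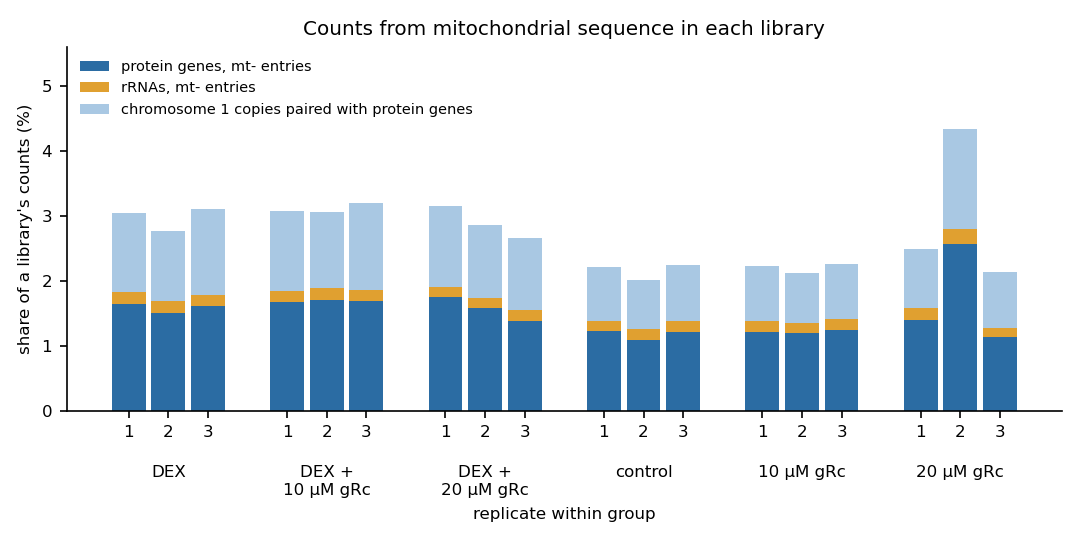
Share of each library's counts on mitochondrial protein genes, rRNAs and the chromosome 1 copies, stacked, in percent. Bars of the 9 libraries with DEX reach 2.66% to 3.20%, those without DEX reach 2.02% to 2.49%, and replicate 2 of 20 µM gRc reaches 4.34%.

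The rRNAs took 0.158% to 0.190% of counts in the 9 libraries with DEX and 0.142% to 0.172% in the 8 without, and these ranges overlapped. Per 100 counts on protein genes and their copies there were 5.20 to 6.87 rRNA counts in the 9 libraries with DEX, against 7.11 to 8.63 in the 8 without, with no overlap. Replicate 2 of 20 µM gRc had 5.66, inside the range of the libraries with DEX. Poly-A selection captures rRNAs only in part, so these ratios describe the captured RNA.

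Levels per length were compared in control myotubes, in CPM per kilobase (kb). With copies added, mt-Co3 stood highest at 4089 ± 244, followed by mt-Co2 at 3486 ± 116, mt-Atp6 at 3394 ± 407, mt-Co1 at 2628 ± 121 and mt-Nd1 at 1808 ± 95.3 (SD, n = 3). The ranges of mt-Co2 and mt-Atp6 overlapped, while at each other step down to mt-Nd1 the ranges of the 3 libraries did not overlap. The lowest were mt-Nd5 at 454 ± 36.7, mt-Nd6 at 366 ± 74.4 and the small rRNA mt-Rnr1 at 354 ± 10.1 CPM per kb, whose ranges overlapped from neighbour to neighbour. The large rRNA mt-Rnr2 stood at 768 ± 37.0 CPM per kb.

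As deposited, the order was different for the paired genes. The mt-Co2 entry was the lowest of the 15 at 34.7 ± 9.59 CPM per kb, mt-Co3 had 219 ± 47.2 and mt-Atp6 had 160 ± 21.4, and mt-Co1 was the highest at 2600 ± 137 CPM per kb (SD, n = 3). Of the 5 highest genes with copies added, 2 were among the 5 highest as deposited. Length correction weighs heavily on short genes. With an assumed fragment of 150 bases subtracted from each length, mt-Atp8 was first at 5217 CPM per kb, against 1381 per annotated kb.

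**Figure D3:**
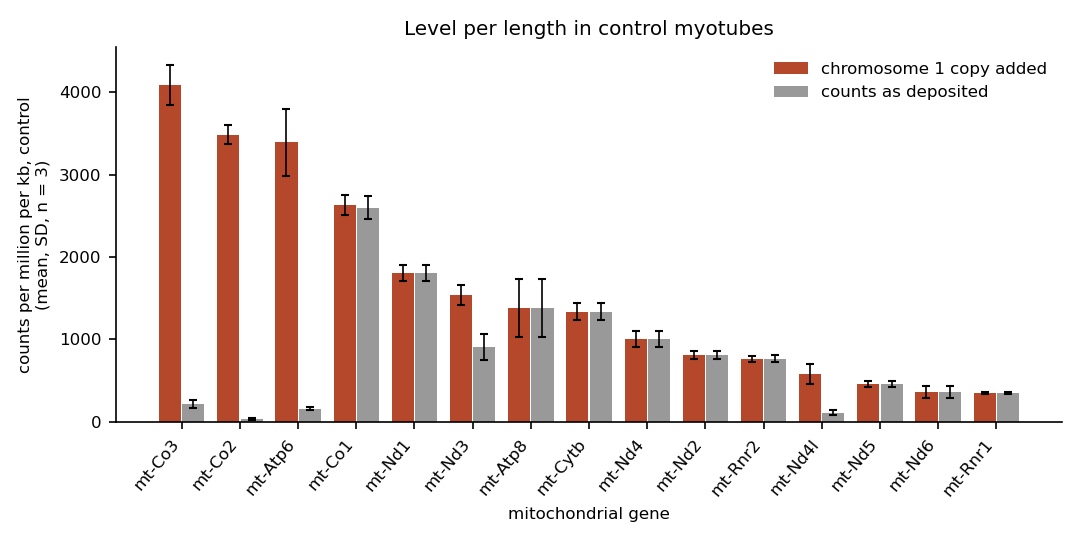
Mean level per kb of annotated length in control myotubes for the 15 detected genes, with SD over 3 libraries. The bars of mt-Co3, mt-Co2 and mt-Atp6 stand at 4089, 3486 and 3394 CPM per kb with the copy added and at 219, 34.7 and 160 as deposited.

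Averaged over the 3 levels of ginsenoside, the log2 change with DEX was above 0 for all 15 mitochondrial genes, except that mt-Rnr2 stood at -0.0172 without composition scaling and at -0.0096 without replicate 3 of 20 µM gRc. Single levels included estimates below 0, given with each comparison. How many genes passed the test depended on 1 library and on the copies. The average of the 3 DEX comparisons (DEX over no DEX at 0, 10 and 20 µM gRc) was tested with edgeR's quasi-likelihood test and Benjamini-Hochberg adjustment over all genes at 0.05. As deposited, 4 of 15 mitochondrial genes were higher and none lower (0 of 15), against 63.5% of all tested genes called, 31.3% higher. They were mt-Atp6, mt-Co1, the complex III gene mt-Cytb and mt-Nd3. The median log2 change of the 15 was 0.32, against -0.00 over all genes.

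With copies added 7 of 15 were higher, where 63.6% of all genes were called and 31.4% higher, when mt-Co2, mt-Co3 and mt-Nd4l joined these. Without replicate 2 of 20 µM gRc the counts were 13 of 15 as deposited and 15 of 15 with copies, where 68.3% of all genes were called, and 34.0% and 33.9% higher. In the deposited counts 2 genes were called without replicate 2 of control or without replicate 1 of DEX with 20 µM gRc. Of all genes, 9545 of 15618 (4686 higher) and 9539 of 15625 (4694 higher) were called in those fits.

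The gene mt-Nd3, with copy, gave the smallest adjusted p. It had 812, 700 and 872 CPM with DEX, 853, 776 and 885 CPM with DEX and 10 µM gRc, and 857, 787 and 774 CPM with DEX and 20 µM gRc. It had 540, 576 and 490 CPM in control, 568, 602 and 580 CPM with 10 µM gRc, and 615, 542 and 588 CPM with 20 µM gRc. All 9 libraries with DEX were above all 9 without, replicate 2 of 20 µM gRc included, which was so for 15.2% of all tested genes and for no other mitochondrial gene. In replicate 2 mt-Nd3 stood at 0.901-fold the mean of the other 2 of its group, the lowest ratio of the 15. Without that library 8 of 15 genes separated in this way, where 19.1% of all tested genes did, so being the only one depended on it. The log2 change was 0.52 ± 0.05 (SE, adjusted p = 1.13e-08, edgeR). As deposited it was 0.54 ± 0.22 (adjusted p = 0.0468).

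The complex IV gene mt-Co3, with copy, had 4963, 4771 and 5688 CPM with DEX, 5067, 4786 and 5587 CPM with DEX and 10 µM gRc, and 5414, 4680 and 4906 CPM with DEX and 20 µM gRc. It had 3340, 2986 and 3290 CPM in control, 3321, 2998 and 3236 CPM with 10 µM gRc, and 3582, 5368 and 3474 CPM with 20 µM gRc. Only replicate 2 of 20 µM gRc among the libraries without DEX reached those with DEX. The log2 change was 0.55 ± 0.07 (SE, adjusted p = 3.02e-06, edgeR). As deposited, mt-Co3 had 72.0 to 373 CPM with DEX and 69.2 to 244 CPM without, and its change of 0.50 ± 0.30 did not pass.

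The other calls were smaller or less certain. With copies, mt-Atp6 changed by 0.51 ± 0.14, mt-Co1 by 0.35 ± 0.11, mt-Cytb by 0.33 ± 0.12, mt-Co2 by 0.32 ± 0.08 and mt-Nd4l by 0.31 ± 0.13 on the log2 scale (SE, adjusted p 0.00243 to 0.0421, edgeR). The smallest estimates were those of mt-Nd6 at 0.13 ± 0.17, mt-Rnr1 at 0.16 ± 0.10 and mt-Rnr2 at 0.04 ± 0.07, and none of these 3 passed. Without replicate 2 of 20 µM gRc they were 0.33 ± 0.09, 0.28 ± 0.03 and 0.11 ± 0.04, and all 3 passed, with mt-Rnr2 still the lowest of the 15. Levels of the 9 libraries with DEX were all above the 8 without for 8 of 15 genes with copies, where 19.1% of all tested genes were so, and for 4 of 15 as deposited, where 19% were.

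**Figure D4:**
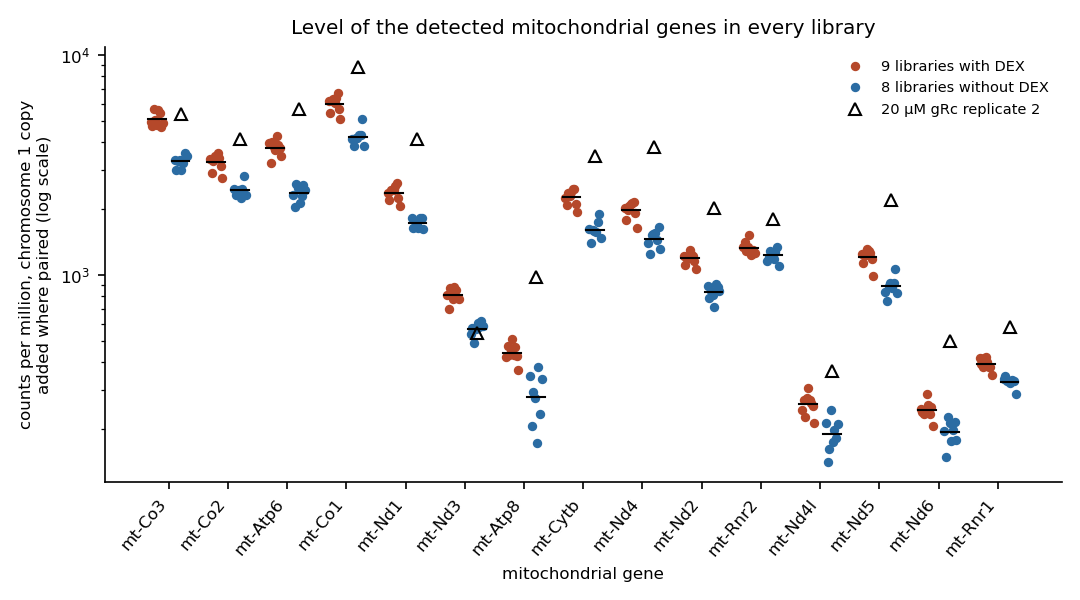
CPM of each detected mitochondrial gene with its copy added, on a log axis, 1 point per library, with bars for the means of the 9 libraries with DEX and the 8 without. Replicate 2 of 20 µM gRc (triangle) lies above all other libraries for 13 of the 15 genes and within their range for mt-Co3 and mt-Nd3. The share of all tested genes for which it lies above was not computed.

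**Figure D5:**
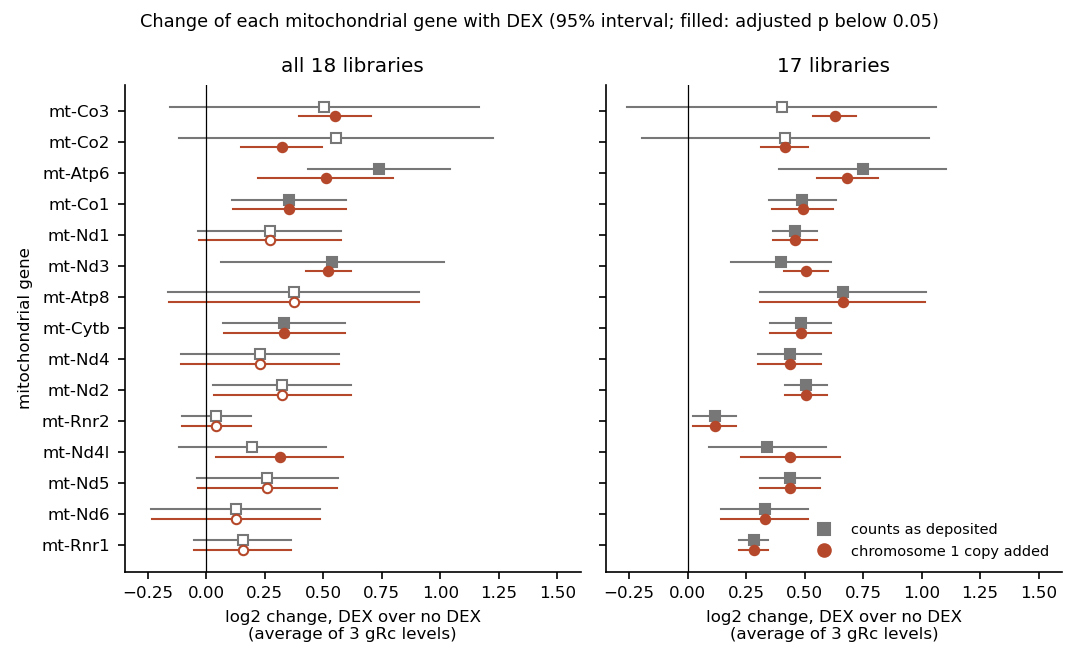
Log2 change with DEX, averaged over the 3 ginsenoside levels, with 95% intervals, for counts as deposited (squares) and with copies (circles), in all 18 libraries (left) and without replicate 2 of 20 µM gRc (right). Filled symbols, with an adjusted p below 0.05, number 4 and 7 on the left and 13 and 15 on the right.

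For DEX against control alone, 2 of 15 genes were higher as deposited, mt-Atp6 (0.92 ± 0.24) and mt-Co1 (0.53 ± 0.20), where 43.8% of all genes were called and 20.6% higher. With copies 5 were higher, mt-Nd3 (0.57 ± 0.08), mt-Co3 (0.68 ± 0.13), mt-Co2 (0.42 ± 0.14), mt-Atp6 (0.69 ± 0.23) and mt-Co1 (0.54 ± 0.20; SE, adjusted p 1.07e-05 to 0.0358, edgeR). With copies all 3 DEX libraries were above all 3 control libraries for each of the 15 genes, and as deposited for 12, where 28.8% of all tested genes were so either way. The fit shares its estimate of spread with the other groups. Without replicate 2 of 20 µM gRc, a library of neither group, 9 genes were called as deposited and 12 with copies, where 51.9% of all genes were called and 25.2% higher. The count with copies was 2 without replicate 2 of control, replicate 1 of DEX or replicate 3 of DEX, and 3 without replicate 3 of control. As deposited it was 1 without any 1 of these 4 libraries or without replicate 1 of control. These fits tested 15612 to 15639 genes, of which 5834 to 6077 were called and 2724 to 2962 were higher.

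The messenger of mt-Co1, the most abundant mitochondrial transcript by count, had 6177, 5419 and 6138 CPM with DEX and 4158, 3845 and 4178 CPM in control, copy included. The groups did not overlap. For mt-Co2 the deposited entry had 15.04, 26.03 and 22.40 CPM with DEX and 29.93, 16.86 and 24.36 CPM in control, which overlapped, with a log2 change of -0.16 ± 0.53. With its copy mt-Co2 had 3363, 2890 and 3302 CPM with DEX, against 2459, 2301 and 2393 CPM in control. Its direction thus depended on whether the copy was counted.

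In the presence of 10 µM gRc, DEX was compared with 10 µM gRc alone. As deposited 4 of 15 genes were higher, where 44.2% of all genes were called and 21.1% higher. With copies 7 were higher, where 44.2% of all genes were called and 21.2% higher. With copies 14 of the 15 had all 3 libraries of DEX with 10 µM gRc above all 3 of 10 µM gRc, where 29.2% of all tested genes were so, and the exception was mt-Rnr2. As deposited 11 were so. The median log2 change of the 15 was 0.50 as deposited and 0.53 with copies. Without replicate 2 of 20 µM gRc 10 and 14 genes were higher, where 52.6% of all genes were called and 25.9% higher. As deposited, leaving out any 1 library of the 2 groups left 0 or 1 call, and with copies 3 or 4. Those fits tested 15601 to 15632 genes, of which 5915 to 6264 were called and 2824 to 2998 were higher.

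In the presence of 20 µM gRc the comparison rested on replicate 2. None of 15 genes was called as deposited (0 by edgeR, 2 at an unadjusted p below 0.05, and 2 called by DESeq2), where 48.9% of all genes were called and 23.5% higher. Of all 15436 genes, 8361 had an unadjusted p below 0.05. DESeq2 called 7473 of 15433 genes, 3630 of them higher, and its 2 mitochondrial calls were both higher. With copies, mt-Nd3 was called (0.47 ± 0.08, adjusted p = 7.86e-05), where 49.0% of all genes were called and 23.5% higher. The median log2 change of the 15 was -0.12 as deposited and -0.10 with copies. Only 4 of 15 estimates were above 0 as deposited and 3 of 15 with copies, and the lowest was -0.37 in both. Without replicate 2 of 20 µM gRc all 15 were above 0 in both. The median was then 0.37 in both, with 6 and 10 genes higher, where 51.0% of all genes were called and 25.4% higher. Without replicate 3 of 20 µM gRc, which leaves replicate 2 as 1 of 2, 2 genes were lower as deposited. With copies 1 was then higher and 2 lower. As deposited, 2 were called without replicate 1 of 20 µM gRc, and 1 without replicate 2 or without replicate 3 of DEX with 20 µM gRc. For these fits, and for that without replicate 3 of 20 µM gRc, shares of all genes called are not given here.

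Ginsenoside alone gave no mitochondrial call. For 10 µM gRc against control, 0 of 15 genes were called by edgeR and 0 by DESeq2, with 0 at an unadjusted p below 0.05, and 0.00648% of all genes were called. Log2 changes with copies ran from -0.05 to 0.25. For 20 µM gRc against control, 0 of 15 were called by edgeR or DESeq2, where 0.104% of all genes were called. There 11 of 15 had an unadjusted p below 0.05 with copies and 7 as deposited, all by estimates above 0. Of all genes, 1438 of 15430 with copies and 1434 of 15436 as deposited had such a p.

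The estimates at 20 µM rested on 1 library. The median log2 change of the 15 genes was 0.54 as deposited and 0.56 with copies in the 3 libraries. Without replicate 2 it was 0.04 and, with copies, 0.10, when 0 were called by edgeR and 1 gene had an unadjusted p below 0.05, where 0.275% of all genes were called (0.282% as deposited). That gene, mt-Rnr1, had 330, 581 and 286 CPM with 20 µM gRc, against 337, 348 and 329 CPM in control, and without replicate 2 its log2 change was -0.13 ± 0.05. Without replicate 2, 1218 of 15618 genes as deposited and 1220 of 15612 with copies had an unadjusted p below 0.05. With copies mt-Co3 alone of the 15 had all 3 libraries of 20 µM gRc above all 3 of control, where 4.67% of all tested genes did, and as deposited 0 of 15 did, where 4.68% of all tested genes did.

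Adding ginsenoside to DEX gave no mitochondrial call either. For DEX with 10 µM gRc against DEX, 0 of 15 genes were called by edgeR or DESeq2, and 0 had an unadjusted p below 0.05, while 0.0259% of all genes were called. Log2 changes with copies ran from 0.00 to 0.20, all 15 above 0. With copies 3 of 15 genes (mt-Nd1, mt-Co2 and mt-Nd4) had all libraries of DEX with 10 µM gRc above all of DEX, where 5.22% of all tested genes did. As deposited 2 did (mt-Nd1 and mt-Nd4), where 5.23% of all tested genes did. For DEX with 20 µM gRc against DEX, 0 of 15 were called by edgeR or DESeq2, and 0 had an unadjusted p below 0.05, while 0.369% of all genes were called as deposited and 0.402% with copies. With copies the log2 changes ran from -0.10 to 0.02. With copies 0 of 15 genes had all libraries of DEX with 20 µM gRc above all of DEX, where 7.23% of all tested genes did. For 1 gene, mt-Rnr1, all were below, and the share of all genes that were so is not given here. Without replicate 2 of 20 µM gRc, a library of neither group, 0 of 15 were called by edgeR and 1 had an unadjusted p below 0.05, where 2.18% of all genes were called as deposited and 2.2% with copies. Such a p was found for 2055 of 15618 genes as deposited and 2055 of 15612 with copies. Both comparisons share the DEX libraries, and the 2 ginsenoside comparisons without DEX share the control libraries.

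The 95% intervals of DEX with 20 µM gRc against DEX state what the data leave possible for single genes. For mt-Co1 the estimate with copy was -0.02 (95% interval -0.44 to 0.40), for mt-Nd3 0.02 (95% interval -0.15 to 0.19) and for mt-Co3 -0.04 (95% interval -0.31 to 0.23). A p above the threshold does not show that the levels were equal. The difference between the DEX response at each ginsenoside dose and that without ginsenoside was tested as an interaction. At 10 µM 0 of 15 genes passed (0 with an unadjusted p below 0.05, 0 by DESeq2), and at 20 µM 0 of 15 (2 with an unadjusted p below 0.05 with copies, 0 by DESeq2). No gene at all (0%) was called by edgeR in either. At 20 µM with copies, 816 of 15430 genes had an unadjusted p below 0.05.

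The library that stood apart, replicate 2 of 20 µM gRc, was high in most mitochondrial transcripts at once. Relative to the mean of the other 2 libraries of its group, the 15 genes were 0.901-fold to 3.46-fold with copies, with a median of 2.07-fold, and 0.234-fold to 3.46-fold as deposited, with a median of 2.03-fold. The ratios that follow are with copies. The largest ratio was that of mt-Atp8, at 983 CPM against 232 and 336 CPM. The complex I genes without a paired copy stood at 2.35-fold (mt-Nd2), 2.42-fold (mt-Nd1), 2.32-fold (mt-Nd5) and 2.56-fold (mt-Nd6), and mt-Nd4 at 2.58-fold.

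The rRNAs and some paired genes of that library had lower ratios. They were 1.88-fold for mt-Rnr1 and 1.48-fold for mt-Rnr2, 1.62-fold for mt-Co2, 1.52-fold for mt-Co3 and 0.901-fold for mt-Nd3, which at 542 CPM was below both others of its group. Within the mitochondrial total mt-Nd3 made up 1.22% of that library, against 2.24% to 2.94% in the other 17. As deposited 11 genes were above all 17 others, mt-Co2 and mt-Nd3 were below all 17, and mt-Atp6 and mt-Co3 were within their range. With copies 13 were above and 0 below. The share of all tested genes above or below the other 17 libraries was not computed, so these counts have no baseline. Over all genes this library also stood apart, on the second principal component. These are descriptions of 1 library, with no test.

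The nuclear genes that serve the mitochondrial genome were read in the same DEX average, each list against 31.3% of all genes higher and 32.2% lower. Counts without replicate 2 of 20 µM gRc stand in brackets, as higher and lower, where 34.0% and 34.3% of all genes were. Of 24 measured genes of mitochondrial RNA processing and stability 14 rose and 0 fell (14 and 0). Lrpprc, which stabilises mitochondrial messengers, averaged 82.2 ± 0.976 CPM with DEX and 61.2 ± 2.02 CPM in control (SD, n = 3 each), with an average log2 change of 0.47 ± 0.05 (SE, adjusted p = 9.68e-08, edgeR). Ptcd1 rose by 0.29 and Fastkd1 by 0.27, both members of families that bind mitochondrial RNA.

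Of 10 transcription genes 6 rose and 1 fell (6 and 1). Tfb2m, a transcription initiation factor, rose by 0.19, Mterf4 by 0.26 and Mrpl12, also a ribosomal protein, by 0.21, and Mterf2 was the one that fell, by -0.35. Of 16 replication and maintenance genes 6 rose and 4 fell (6 and 5). The smallest adjusted p values belonged to 3 that fell, the nuclease Exog by -0.85, the topoisomerase Top1mt by -0.31 and the nuclease and helicase Dna2 by -0.58.

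Translation genes were divided. Of 18 translation factors 11 rose and 1 fell (11 and 1), led by Noa1 (0.29), the inner membrane insertase Oxa1l (0.17) and Gfm2 (0.15). Of 78 proteins of the mitochondrial ribosome 31 rose and 3 fell (32 and 10), with Mrpl38 (0.22), Mrps6 (0.55) and Mrps30 (0.25) leading. Of 23 aminoacyl-tRNA synthetases, the enzymes that load tRNAs, 5 rose and 4 fell (4 and 4), and Nars2 fell by -0.71, Gars, which also serves the cytosol, fell by -0.28 and Mars2 rose by 0.36. Of 23 rRNA and tRNA modification genes 5 rose and 6 fell (5 and 9), with Mrm3 at 0.42, Trmt5 at -0.21 and Cdk5rap1 at 0.29.

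Among nuclear partners of the mitochondrial subunits, calls were mostly in the higher direction. Of 36 nuclear complex I subunits 15 rose and 0 fell (20 and 2), of 9 of complex III 8 rose and 0 fell (8 and 0), of 14 of complex IV 8 rose and 1 fell (8 and 0), and of 17 of ATP synthase 10 rose and 0 fell (11 and 1). Median log2 changes were 0.13, 0.24, 0.19 and 0.17 in that order, against 0.32 for the 15 mitochondrial genes as deposited. Without replicate 2 of 20 µM gRc these medians were 0.09, 0.21, 0.14 and 0.13, against 0.44. Ndufa10 of complex I rose by 0.33, Ndufs7 by 0.37 and Ndufb10 by 0.33. Uqcrc2, Cyc1 and Uqcrc1 of complex III rose by 0.24, 0.42 and 0.21. Cox5b, Cox5a and Cox8a of complex IV rose by 0.27, 0.42 and 0.23, and the muscle isoform Cox6a2 fell by -0.22. Atp5f1, Atp5b and Atp5c1 of ATP synthase rose by 0.32, 0.34 and 0.29.

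Complex II, which has no mitochondrially encoded subunit, showed the same direction, with 4 of 4 genes higher (4 and 0). Sdha rose by 0.32, Sdhc by 0.17 and Sdhd by 0.35. Of 18 matrix and import genes 11 rose and 0 fell (12 and 1), among them Cs and Ogdh, enzymes of the citric acid cycle, by 0.28 and 0.50. Of 15 quality control and mitophagy genes 9 rose and 1 fell (9 and 3), with the protease Afg3l2 higher by 0.40, Clpx by 0.35 and the mitophagy receptor Bnip3 by 0.34. In the 4 ginsenoside comparisons against control or against DEX no gene of these 14 lists was called (0 by edgeR, against 0.00648% to 0.369% of all genes).

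Across the 18 libraries, the nuclear genes whose log2 CPM followed the mean log2 CPM of the 13 mitochondrial protein genes most closely were Tor1aip1, Fcho2, Rbfox1, Rmnd1, Gpatch8, Clec16a, Traf6, Gab2, Arl8a and Mllt3, with Pearson's r from 0.935 to 0.957 as deposited. With copies the first 3 were Tmem131, Arid4a and Wasl (0.967, 0.959 and 0.958). Without replicate 2 of 20 µM gRc they were Bmf, Arid4a and Syn2 as deposited (0.963, 0.958 and 0.958) and Zhx3, Slc22a23 and Fth1 with copies (0.966, 0.966 and 0.964). The points share their libraries, depth and DEX groups, so these values are a description with no test.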

How the data were processed

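Poly-A RNA of 18 libraries was sequenced as 100-base pairs with a strand-directional kit, per the labels' protocols. The authors deposited 1 table of expected counts, made with RSEM 1.3.3 and STAR 2.7.3a on GRCm38 per the submitters' processing notes, which also list Trim Galore 0.6.5 and FastQC 0.11.9. Annotation release and strand setting: not given in the sources used here. GENCODE vM21 named 48435 of 48795 gene IDs. Values were rounded to whole counts (9.27% were not whole), filtered with filterByExpr, scaled by TMM and tested with edgeR 4.0.16's quasi-likelihood test in R 4.3.3, in 1 model of the 6 groups with 10 comparisons, with Benjamini-Hochberg adjustment over all genes. Nuclear copies were found with BLAST+ 2.17.0. DESeq2 1.42.0 and the other settings are given at the end. Log2 CPM used a prior count of 2.

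Genes were named as follows: all members, and of each nuclear list the 3 with the smallest adjusted p in the DEX average, plus the 10 nuclear genes most like the mitochondrial mean. A gene that this rule names is not reported here. Tfb2m, Cox6a2 and the cell markers were named outside that rule, after their values were seen. The members and lists were chosen with earlier results of these data known. On simulated counts for DEX against control over 15110 genes, recovery was 44% at a 1.25-fold change, 84% at 1.5-fold and 100% at 2-fold. The changed genes were drawn at random rather than from the mitochondrial genes, whose own recovery was not measured. Deviations of same-numbered libraries correlated at -0.196 to 0.150, so the numbers were not taken as pairs. Replicate libraries differed by more than sampling noise (chi-square per degree of freedom 5.24 to 89.2).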

Additional observations from a re-analysis of the deposited data

How the results depend on the processing

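Counts of mitochondrial genes called, of 15, depended on the setting. For the DEX average (4 as deposited) there were 2 with no low-count filter and 7 with copies, and 2 to 13 leaving out 1 library (5 to 15 with copies). For DEX against control (2) there was 1 without composition scaling or without the filter, 5 with copies, 9 in a fit of the compared groups alone, 9 without replicate 2 of 20 µM gRc (12 with copies), and 1 to 2 leaving out 1 library (2 to 5 with copies). For DEX with 10 µM gRc against 10 µM gRc (4) there were 2 without scaling, 0 without the filter, 7 with copies, 10 in the compared groups alone, 10 without replicate 2 of 20 µM gRc (14 with copies), and 0 to 1 leaving out 1 library (3 to 4 with copies). For DEX with 20 µM gRc against 20 µM gRc (0) there were 2 by DESeq2, 1 with copies, and 0 to 6 leaving out 1 library (1 to 10 with copies). With the replicate block, which the labels do not show to be a pairing, the counts in these 4 comparisons were 3, 2, 2 and 1. Of 15436 genes, the block fit called 9738 (4799 higher), 6652 (3134 higher) and 6743 (3221 higher) in the first 3 of these. For the last, at 20 µM gRc, the shares of all genes with the block or leaving out 1 library are not given here. The other comparisons had 0 in every setting run. Among all genes, the fits of the compared groups alone called 7934 of 14827 for DEX against control (3916 higher). At 10 µM gRc they called 8076 of 14815 (3931 higher). Without the filter, of 26796 genes, 9892 were called for the DEX average, 6257 for DEX against control and 6376 at 10 µM gRc. Without scaling, of 15436 genes, 6760 (2368 higher) and 6823 (2449 higher) were called in the last 2 of these.

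The log2 ratio of the geometric mean mitochondrial share, DEX with 20 µM gRc over 20 µM gRc, was below 0 as deposited and 0.0169 with copies, where the arithmetic means were 2.89% and 2.99%, the opposite order. It was -0.2828 to 0.2847 leaving out 1 library, positive without replicate 3 of DEX with 20 µM gRc or replicate 2 of 20 µM gRc. Of the 5 highest genes per kb with copies, 2 were so as deposited. Some single log2 changes turned sign. For mt-Rnr2 the DEX average was -0.0172 without scaling and -0.0096 to 0.1144 leaving out 1 library. For DEX against control, leaving out 1 library gave -0.3585 to 0.0416 for mt-Co2 and -0.2804 to 0.5027 for mt-Co3, and mt-Co2 was 0.42 with its copy. For 20 µM gRc against control, with copies mt-Co2 was 0.37, mt-Co3 0.37 and mt-Nd3 0.12. There, leaving out 1 library gave -0.0942 to 0.4123 for mt-Atp6, -0.5198 to 0.1922 for mt-Co3, -0.0123 to 0.7885 for mt-Nd1, -0.5344 to 0.1958 for mt-Nd3, -0.1374 to 0.4847 for mt-Nd4l and -0.1337 to 0.4308 for mt-Rnr1. The value on the other side of 0 came without replicate 2 of 20 µM gRc for mt-Co3, mt-Nd1, mt-Nd3, mt-Nd4l and mt-Rnr1, also without replicate 1 of control for mt-Co3, and without replicate 1 of 20 µM gRc for mt-Atp6. Single-gene values were followed for the DEX average, DEX against control and 20 µM gRc against control only. Of these, 736 kept direction and side of the threshold, 30 passed it newly, 27 lost it and 17 turned sign. Sign turns in the other comparisons were not counted. For DEX with 20 µM gRc against 20 µM gRc, 4 of 15 estimates were above 0 as deposited, and 15 of 15 without replicate 2 of 20 µM gRc. The cause was not tested. Limits are 3 libraries a group, 1 library that stands apart, and reads that the chromosome 1 copies share.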
